A study of Saccharomyces cerevisiae with 6 samples.

Results

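The 8 genes described here make and reduce glutathione in budding yeast or join it to other molecules: GSH1 and GSH2 for synthesis, GLR1 for reduction, GTT1 and GTT2 for 1 pair of transferases, and ECM4 (also called GTO2), GTO1 and GTO3 for the omega class. They were chosen by name, with earlier results of these data known, and each had 1 probe among the 6912 probes of the array. Exponentially growing cultures of strain S288C in YPD medium were exposed to 35 ppm paraquat (methyl viologen) for 2 h, and their cDNA, labelled with Cy5, was hybridised on 2-colour arrays with Cy3-labelled cDNA from cultures of the same strain and medium grown for 2 h without treatment. There were 3 hybridisations, described as independent biological samples, and the labels do not say whether each had an untreated culture of its own. Scans at a high and a low laser power gave 6 sets of log ratios, and both scans of an array were averaged so that n = 3 arrays. Treated cDNA carried Cy5 on every array, so a dye effect and a treatment effect cannot be told apart.

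Glutathione is a small thiol peptide that buffers the redox state of the cell. Gsh1 joins glutamate and cysteine in the rate-limiting step of its synthesis, Gsh2 adds glycine, and Glr1 uses NADPH to turn the oxidised disulphide back into the thiol. Glutathione transferases attach the thiol to reactive compounds, and those of the omega class mainly carry out thiol exchange and dehydroascorbate reduction. Paraquat passes electrons from cellular reductants to oxygen and so generates superoxide, a stress under which the demand for reduced glutathione and NADPH is known to rise. In yeast GSH1 and GLR1 are known targets of Yap1, a transcription factor activated by peroxide.

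None of the 8 glutathione genes passed the test for a change after paraquat. Of the 7 genes with a value on all 3 arrays, the 4 transferase genes had mean log ratios from 0.24 to 0.42, while GSH1 and GLR1 lay near 0 and GSH2 was at -0.27. GTO3 had no value on replicate 1 and averaged 0.72 on the other arrays. This was the highest mean of the 8 genes on those arrays, where GTT2 averaged 0.65, but it lacks the array on which GTT2 was lowest. Ratios were taken as log2 of treated over untreated, so a value of 1 is a 2-fold rise. This direction is likely, since the labels list the treated culture as the first channel, but no source used here states it or the logarithm's base, and with the opposite direction every sign below would turn. The values are ratios within an array, so they give no transcript level and no order of abundance among the genes.

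The test was limma's moderated fit of the mean log ratio against 0, two-sided, with Benjamini-Hochberg adjustment over all 5693 probes that had a value on every array. It called 2 probes, or 0.0351%, at an adjusted p under 0.05, and 0 of the 7 glutathione genes. At an unadjusted p under 0.05 it gave 613 probes, or 10.8%, and again 0 of the 7 genes. Their adjusted p-values lay between 0.464 for GTT1 and 0.979 for GLR1. The mean was above 0 for 5 of the 7 genes, against 49.2% of all tested probes, and the median of the 7 means was 0.24, against -0.00654 for all probes. The sign was the same on every array for 4 of the 7 genes, GSH2, GTT1, ECM4 and GTO1, against 32% of all probes (background percentages are over the same 5693 probes).

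**Figure D1:**
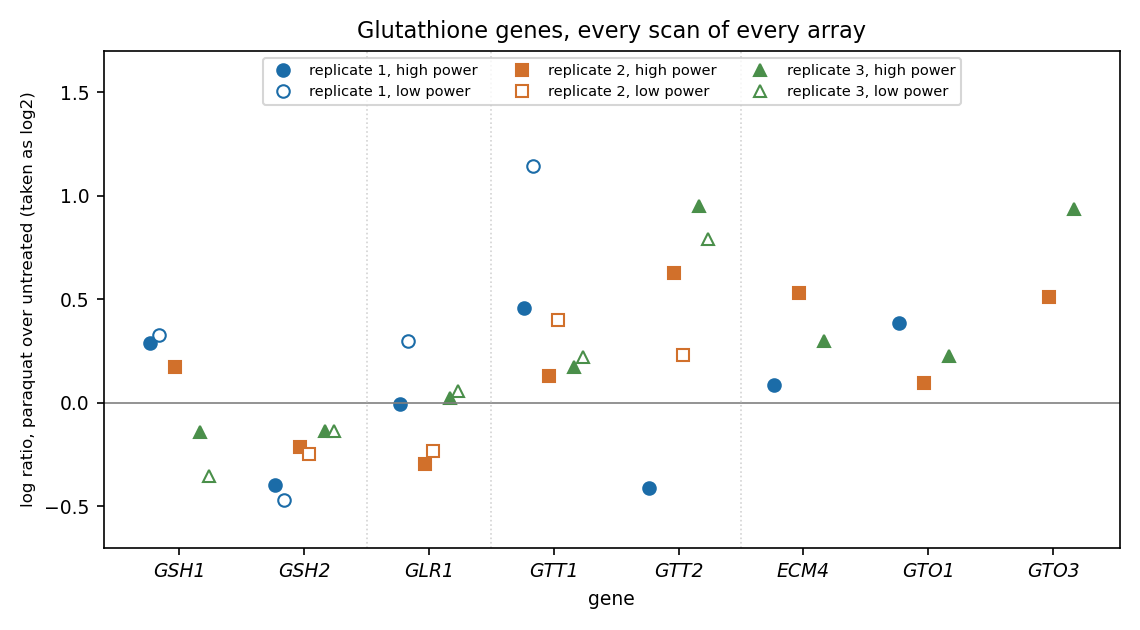
Log ratio of paraquat-treated over untreated cultures (vertical axis, taken as log2) for each of the 8 glutathione genes (horizontal axis) in every scan that gave a value. Colour and shape mark the array, filled points the high power scan and open points the low power scan; GTT2 spans the widest range of the 8, from -0.41 on replicate 1 to 0.95 in the high power scan of replicate 3, and GSH2 is below 0 in all 6 scans.

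The synthesis genes GSH1 and GSH2 differed in how steady they were. GSH1 (YJL101C), the gene of glutamate-cysteine ligase, had values of 0.31, 0.17 and -0.25 on replicates 1, 2 and 3. It was thus above 0 on 2 arrays and below 0 on replicate 3, with both scans of that array below 0. Its mean was 0.0788 ± 0.291 (SD, n = 3 arrays), or 1.06-fold, with a 95% interval of 0.79-fold to 1.41-fold and a limma adjusted p of 0.941. Leaving out replicate 1 turned the mean to -0.0365, and leaving out replicate 3 raised it to 0.24. Removing an additive trend over the digits of the probe number, used in place of an unknown array position, gave -0.0147.

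GSH2 (YOL049W), the gene of glutathione synthetase, was below 0 on every array, at -0.43, -0.23 and -0.14. It was the 1 tested member with this pattern, which 16% of all tested probes also had. The scans agreed closely, with a gap between high and low power of 0.074, 0.0331 and 0.00117 on replicates 1, 2 and 3, where the median absolute gap over all probes and arrays was 0.152. Its mean was -0.27 ± 0.15 (SD, n = 3 arrays), or 0.831-fold, with a 95% interval of 0.626-fold to 1.1-fold and a limma adjusted p of 0.674. With the probe-number trend removed the values on replicates 1, 2 and 3 became -0.0962, -0.0963 and 0.0534 and the mean -0.0464, so most of the negative value moved with that trend, whose part in it was not otherwise tested.

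GLR1 (YPL091W), the gene of glutathione reductase, showed no steady direction. It was at 0.15, -0.26 and 0.0409 on replicates 1, 2 and 3, so that replicate 2 alone lay below 0. Its mean was -0.0252 ± 0.213 (SD, n = 3 arrays), with a 95% interval of 0.739-fold to 1.31-fold and a limma adjusted p of 0.979. On replicate 1 the high power scan read -0.00649 and the low power scan 0.30, and 33.5% of the 2271 probes with both scans of that array had a gap at least as large. The mean turned positive without replicate 2 (0.094), on low power scans alone (0.0414) and with the probe-number trend removed (0.0332).

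GTT1 (YIR038C), which encodes a transferase associated with the endoplasmic reticulum, had the smallest p of the tested genes. Its values were 0.80, 0.27 and 0.20 on replicates 1, 2 and 3, above 0 in all 6 scans. The array values, with scans averaged, were thus above 0 on every array, as they were for 16% of tested probes. Replicate 1 was the high one, and there the scans were far apart, with 0.46 at high power and 1.14 at low power. A gap that large or larger was seen in 6.96% of probes with both scans of that array.

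The mean of GTT1 was 0.42 ± 0.33 (SD, n = 3 arrays), or 1.34-fold, with a 95% interval of 0.999-fold to 1.79-fold. Its limma unadjusted p was 0.0508 and its adjusted p 0.464, and the mean stood at percentile 94.1 of all tested probes. On high power scans alone the mean was 0.25 and on low power scans alone 0.59. Without replicate 1 it was 0.23, with a limma adjusted p of 0.981. The tested genes whose 3 array values were closest to those of GTT1, among 5217 named probes, were MLG1, IRC6 and LTO1, with root mean square differences of 0.0495, 0.0669 and 0.067 on the log2 scale over the 3 arrays. They are the nearest of many candidates on only 3 values each, and whether they share control with GTT1 was not tested.

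GTT2 (YLL060C), the other transferase gene of this pair, was the most variable of the tested glutathione genes. It read -0.41 on replicate 1, from the high power scan alone, then 0.43 on replicate 2 and 0.87 on replicate 3. Replicate 1 therefore lay at percentile 17.9 of that array and replicate 3 at percentile 98.9 of its own. The SD over arrays, 0.65, was at percentile 94.4 of all tested probes, whose median SD was 0.296. The mean was 0.30 (n = 3 arrays), or 1.23-fold, with a 95% interval of 0.887-fold to 1.7-fold and a limma adjusted p of 0.693. Without variance moderation, so from the spread of GTT2 alone, the interval ran from -1.32 to 1.91 as log ratios. Without replicate 1 the mean was 0.65, with a limma unadjusted p of 0.0176 and an adjusted p of 0.771, and without replicate 3 it was 0.00992.

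GTT1 and GTT2 ranked in opposite orders on different arrays. GTT1 minus GTT2 was 1.21 on replicate 1, -0.16 on replicate 2 and -0.67 on replicate 3. The mean difference of 0.12 ± 0.97 (SD, n = 3 arrays) gave a two-sided exact sign-flip permutation p of 1, where 3 arrays allow no p below 0.25. The test could therefore not reach a threshold of 0.05 at any spread, and the difference is given as a value only.

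**Figure D2:**
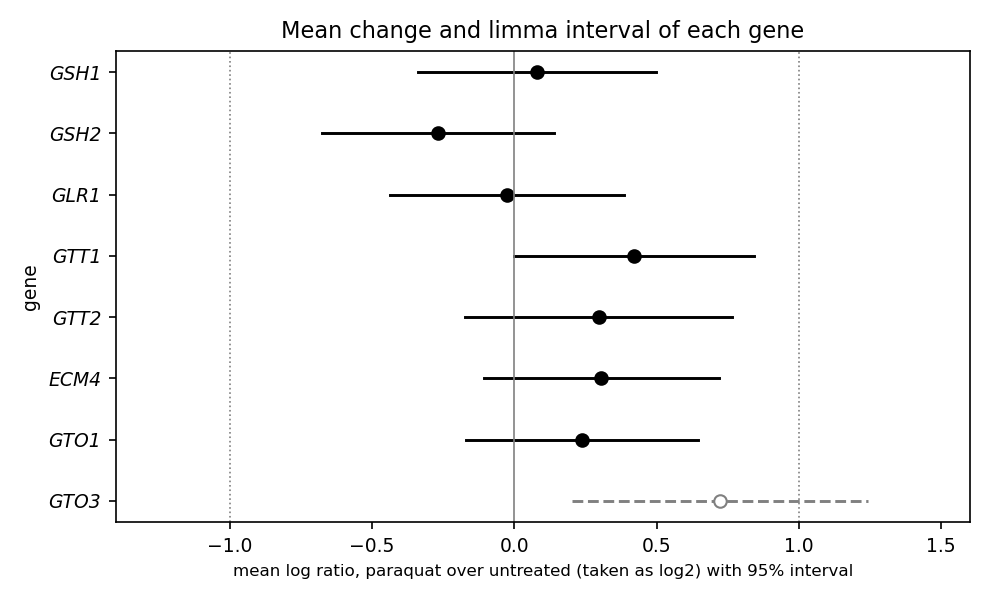
Mean log ratio of each glutathione gene (points, taken as log2) with its 95% interval from limma (lines). The 7 filled points have values on 3 arrays and their intervals lie between -0.67 and 0.84, inside the dotted lines at a 2-fold change; the open point with the dashed line is GTO3, with values on 2 arrays, from a separate fit.

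The omega class genes had a value in high power scans only, at every array where they had one. This was also so for 27.5% of all tested probes, which lacked a value in all 3 low power scans. No check between scans was therefore possible for these 3 genes, whereas the other 5 glutathione genes had at least 1 low power value.

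ECM4 (YKR076W), whose product is a cytosolic omega transferase, was at 0.087, 0.53 and 0.30 on replicates 1, 2 and 3. All 3 values were above 0, with replicate 2 the highest, at percentile 92.9 of its array, and replicate 1 near the middle of its array at percentile 58.3. The mean was 0.31 ± 0.22 (SD, n = 3 arrays), or 1.24-fold, with a 95% interval of 0.929-fold to 1.64-fold and a limma adjusted p of 0.618. The mean without replicate 2 was 0.19.

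GTO1 (YGR154C), which encodes the peroxisomal member of the class, was at 0.39, 0.097 and 0.23 on replicates 1, 2 and 3. These values were all above 0 and close together, with an SD at percentile 15.6 of all tested probes. The mean was 0.24 ± 0.15 (SD, n = 3 arrays), or 1.18-fold, with a 95% interval of 0.889-fold to 1.56-fold and a limma adjusted p of 0.72. Replicate 2, highest for ECM4, was the lowest for GTO1. ECM4 minus GTO1 was accordingly -0.30, 0.44 and 0.071, with a mean difference of 0.069 ± 0.368 (SD, n = 3 arrays; two-sided exact sign-flip permutation p = 0.75).

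GTO3 (YMR251W), the other cytosolic omega transferase gene, was at 0.51 on replicate 2 and 0.94 on replicate 3 and had no value on replicate 1. On replicate 3 it stood at percentile 99.1 of the tested probes of that array, and on replicate 2 at 91.9. It was left out of the fit on 3 arrays. In a fit that also took the 273 probes with 2 arrays, its mean was 0.72 ± 0.30 (SD, n = 2 arrays), or 1.65-fold, with a 95% interval of 1.15-fold to 2.37-fold. The limma unadjusted p there was 0.00812 and the adjusted p 0.268, so it did not pass. In that fit 636 of 5966 probes, or 10.7%, had an unadjusted p under 0.05 and 6, or 0.101%, were called. The spread assumed for GTO3 rests mainly on that of the other probes, since its own 2 values leave 1 degree of freedom. The same held for the 7 genes in the fit on 3 arrays. There the other probes counted for 19.1 degrees of freedom and a gene's own values for 2.

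The 2 arrays that measured GTO3 also measured ECM4 and GTO1, and GTO3 was the higher gene in 3 of these 4 comparisons. GTO1 minus GTO3 was -0.41 on replicate 2 and -0.71 on replicate 3, and ECM4 minus GTO3 was 0.0224 and -0.64. The two-sided exact sign-flip permutation p was 0.5 for the former and 1 for the latter, where 2 arrays allow no p below 0.5. Over the 4 pairs of transferase genes compared, every Benjamini-Hochberg adjusted p was 1, and with these numbers of arrays none could have passed.

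The order of the glutathione genes differed between arrays. On replicate 1 GTT1 was highest at 0.80, and GTT2 at -0.41 and GSH2 at -0.43 were lowest. On replicate 3 the highest were GTO3 at 0.94 and GTT2 at 0.87, and the lowest was GSH1 at -0.25. Between arrays the correlation over the 5693 tested probes, which are not independent replicates, was 0.164 for replicates 1 and 2, 0.217 for 1 and 3 and 0.0254 for 2 and 3 (Pearson). With 3 arrays the median standard error of a probe was 0.201. The upper bound furthest from 0 among the 7 intervals was 0.84, for GTT1, and the lower one was -0.67, for GSH2. In this moderated fit the 7 tested genes thus left room for changes of up to 1.79-fold upward and 0.626-fold downward at 95%. Without variance moderation the intervals of GTT1 and GTT2 reached past a 2-fold change.

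**Figure D3:**
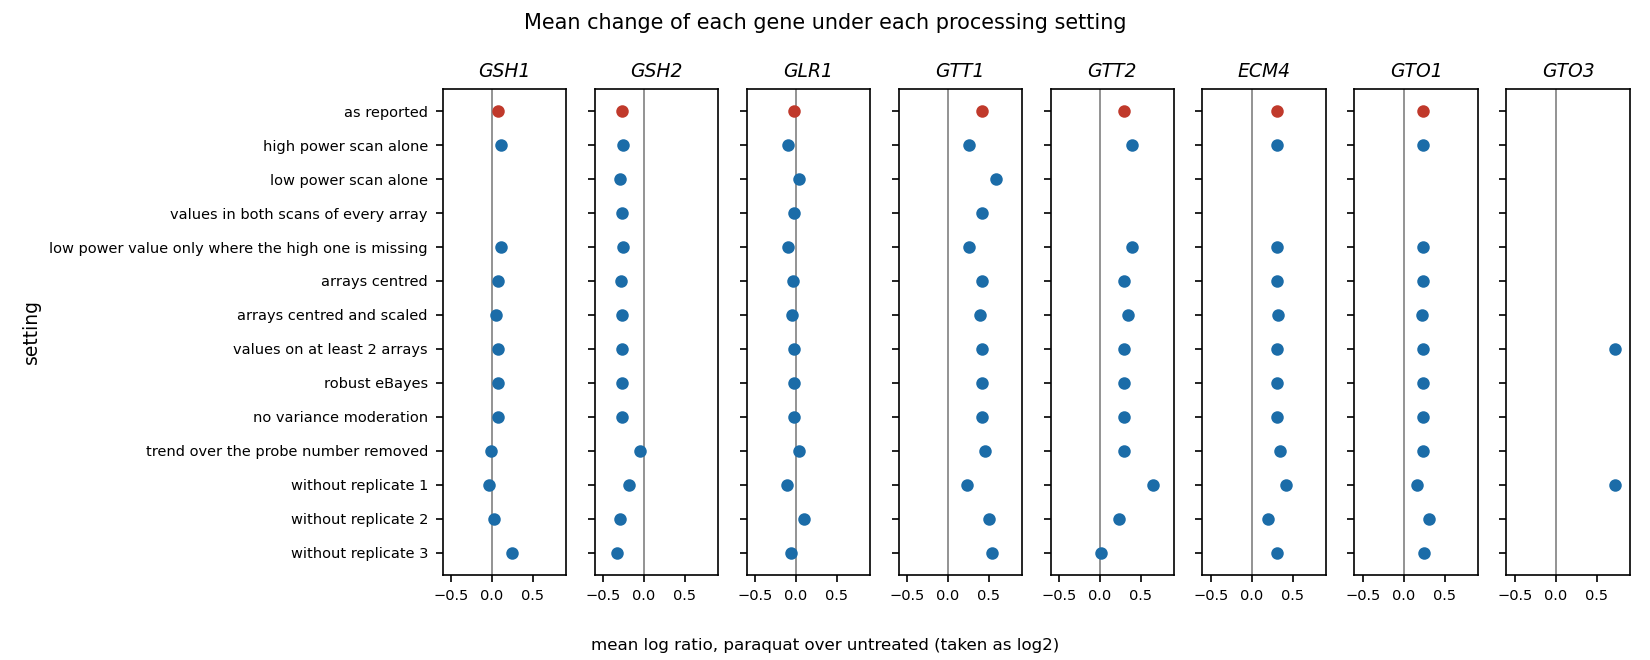
Mean log ratio (horizontal axes, taken as log2) of each glutathione gene under each processing setting (rows), with the reported value in red. GTT1, GTT2, ECM4 and GTO1 stay above 0 and GSH2 below 0 wherever a value could be had, while GSH1 and GLR1 cross 0; GTO3 has a value in 2 settings.

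Around these 8 genes, 52 genes related to them by function or family name were grouped into 8 lists, and 50 of them were tested. Of the 50, 1 rose, 0 fell and 49 did not pass (limma over all probes, which called 0.0351% of them). Their median was 0.048, and it ran from -0.0336 to 0.0111 with 1 array left out, so it held no steady direction. At an unadjusted p under 0.05, 3 of the 50 were higher and 2 lower, against 5.48% of all probes higher and 5.29% lower.

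The lists of glutathione peroxidase family and glutaredoxin genes held the 1 gene that rose. GPX2, a gene of that peroxidase family, was at 1.23, 1.01 and 1.03 on replicates 1, 2 and 3, above every array value of the 8 glutathione genes. Whether its product uses glutathione was not tested. Its mean was 1.09 ± 0.12 (SD, n = 3 arrays; limma adjusted p = 0.0432). The mean of GPX2 lay between 0.88 and 1.13 in all 13 alternatives. Some of these altered only the variance estimate or the set of probes and so left the mean unchanged. The call was lost in 8 of the 13, with the highest adjusted p, 0.741, from lmFit without variance moderation. The 8 also included high power scans alone (mean 1.10, limma adjusted p = 0.0647) and removal of the probe-number trend (mean 0.88, limma adjusted p = 0.218). Leaving out replicate 1 (mean 1.02, limma adjusted p = 0.642) or replicate 3 (mean 1.12, limma adjusted p = 0.0533) lost the call too. The other 2 peroxidase genes did not pass, with HYR1, the peroxide sensor gene upstream of Yap1, at 0.0563 ± 0.0402. None of the 8 glutaredoxin genes passed, with 5 means above 0 and a median of 0.0975, which was 0.0612, 0.28 and -0.0407 without replicates 1, 2 and 3. GRX2, a glutathione-dependent disulphide oxidoreductase gene, was the highest at 0.82 ± 0.39 (SD, n = 3 arrays; limma adjusted p = 0.142), and GRX6, a glutaredoxin gene of the early secretory pathway, was lowest at -0.40 ± 0.28.

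**Figure D4:**
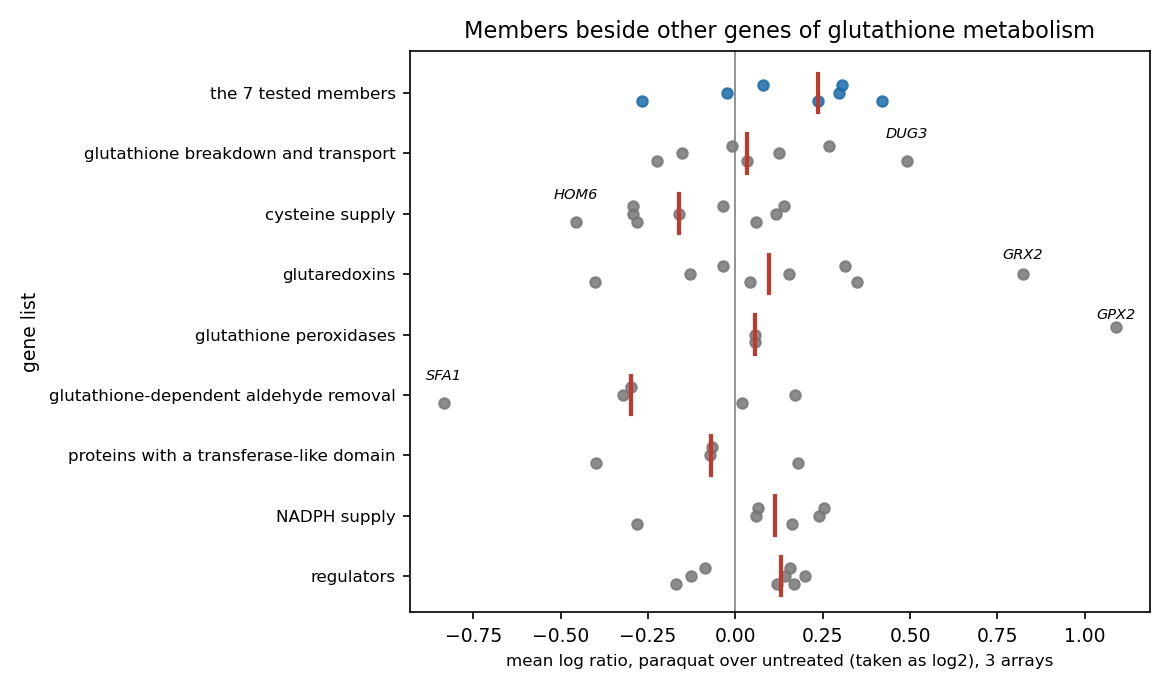
Mean log ratio over 3 arrays (horizontal axis, taken as log2) of the 7 tested glutathione genes (blue) and of 8 lists of related genes (grey), with red bars at list medians; points are spread vertically for legibility. GPX2 at 1.09 is the 1 gene that passed the test, and the medians on all 3 arrays run from -0.30 for aldehyde removal to 0.24 for the 7 genes.

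None of the 9 tested genes of cysteine supply and the 6 of NADPH supply passed. For cysteine supply, 6 of the 9 genes had a mean below 0, and the median was -0.16. HOM6, the homoserine dehydrogenase gene, was at -0.47, -0.50 and -0.41 on replicates 1, 2 and 3, a narrow range below 0, with a limma adjusted p of 0.399. STR2, a gene of cystathionine synthesis, averaged -0.29 ± 0.34. Of the 6 genes of NADPH supply, which Glr1 depends on, 5 had a mean above 0 and their median was 0.11. That median was 0.25, 0.0327 and -0.0266 without replicates 1, 2 and 3, so its sign depended on replicate 3. ALD6, the cytosolic acetaldehyde dehydrogenase gene, averaged -0.28 ± 0.25 and IDP2, the cytosolic isocitrate dehydrogenase gene, 0.25 ± 0.33.

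Genes that remove glutathione or depend on it elsewhere did not pass either. Among the 7 tested genes of breakdown and transport the median was 0.0318, and 0.00833, 0.12 and -0.0355 without replicates 1, 2 and 3. DUG3, a subunit gene of the cytosolic glutathione-degrading complex, was at 0.92, 0.44 and 0.11 on replicates 1, 2 and 3, with a mean of 0.49 and a limma adjusted p of 0.399. Its partner DUG2 averaged 0.27 ± 0.25. Both were thus highest on replicate 1, as GTT1 was.

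In the list of glutathione-dependent aldehyde removal, 2 of 5 genes had a mean above 0 and the median was -0.30, or -0.17, -0.13 and -0.44 without replicates 1, 2 and 3. SFA1, the gene of the formaldehyde dehydrogenase that acts on the glutathione adduct, read -2.16 on replicate 1 but -0.20 and -0.14 on replicates 2 and 3. Its mean of -0.83 (limma adjusted p = 0.295) was therefore carried by 1 array. GLO2, a glyoxalase gene, averaged -0.32 ± 0.43.

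Proteins with a transferase-like domain that are not members had a median of -0.0696 over 4 tested genes, of which 1 was above 0; the median was 0.00751, -0.19 and -0.0816 without replicates 1, 2 and 3. TEF4, a translation elongation factor gene, averaged -0.40 ± 0.34 and YGR201C 0.18 ± 0.50. The 8 regulator genes had a median of 0.13, which turned to -0.12 without replicate 1 and was 0.0111 without replicate 2 and 0.25 without replicate 3. On low power scans alone the median was -0.20, but only 2 of the 8 genes were tested there. Among the 8 were MET4, the activator of sulphur genes, at 0.20 ± 0.23 and MET31, a DNA-binding partner of Met4, at -0.17 ± 0.22. All 8 regulators had adjusted p-values above the threshold.

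Chromosomal neighbours, taken as the next protein-coding entries on either side in the RefSeq table of assembly R64, included other genes of the pathway. GTT1 lies beside HYR1, at 0.0563 against 0.42 for GTT1. GTO1 lies beside CYS4, the cystathionine beta-synthase gene, which averaged 0.12 against 0.24 for GTO1. The neighbours of GTT2 averaged -0.54 (MMP1, an S-methylmethionine permease gene) and -0.92 (HSU1), where GTT2 averaged 0.30. On replicates 1, 2 and 3 MMP1 was at -1.05, -0.61 and 0.0471, and HSU1 at -1.89, -0.50 and -0.35. Like GTT2, at -0.41, both had their lowest value on replicate 1. Next to ECM4, YKR075C averaged 0.60 and MSA2, on the other side, 0.18. SSU1 beside GLR1 was at -0.46 and LSB6 beside GSH1 at 0.0166. Not all neighbours are listed here, and neither neighbour of GSH2 or of GTO3 is named. None of the neighbours named here passed the test.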

How the data were processed

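The deposited values were log ratios of the 2 channels, 1 column per scan, taken here as log2. Per the labels' descriptions, spots with flag 0 entered the authors' LOWESS normalization, and an averaged column made from both scans also existed, not used here. Neither the logarithm's base nor the ratio's direction is stated in the sources used here. Column medians lay between -0.031 and 0.0222, so the arrays were centred near 0, and high power scans gave 5730, 6006 and 5946 values of 6912, low power scans 2496, 2826 and 4076.

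Probes were named through the platform annotation (5513 with 1 symbol, 0 with several, 1399 with none), and 5508 symbols were matched by gene identifier to the RefSeq table of assembly R64. Probes sharing the same values across all scans (to 9 decimals) were counted once. The scans of an array were averaged, or the available scan was used. R 4.3.3 with limma 3.58.1 (lmFit, eBayes) tested the 5693 probes with values on 3 arrays, with Benjamini-Hochberg adjustment at 0.05. The number of arrays limits the precision.

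The members and the lists of related genes were chosen with earlier results of these data known. Named were all 8 members, per list the genes past the threshold and the 2 with the smallest p, and the 3 probes closest to the member with the smallest p. Genes that neighbour the members were added after the data were seen. YCF1 and URE2 and the promoter motifs were not analysed here.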

Additional observations from a re-analysis of the deposited data

How the results depend on the processing

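Over the alternatives, 83 means of the 7 tested glutathione genes were recomputed: 78 kept the direction, 5 reversed, and 0 had a limma adjusted p under 0.05. Not all 83 were free to reverse. Robust eBayes, no variance moderation and the fit on at least 2 arrays left the mean of each of the 7 genes unchanged. Requiring values in both scans did so for GSH2, GLR1 and GTT1. High power scans, alone or with gaps filled, did so for ECM4 and GTO1. GLR1 reversed on low power scans alone (0.0414), with the probe-number trend removed (0.0332) and without replicate 2 (0.094). GSH1 reversed with that trend removed (-0.0147) and without replicate 1 (-0.0365). Of the 83 intervals, 6 reached past a 2-fold change, all of GTT1 or GTT2, with the widest for GTT2 without variance moderation (-1.32 to 1.91). With replicates left out, means ran from 0.23 to 0.53 for GTT1, 0.00992 to 0.65 for GTT2, 0.19 to 0.42 for ECM4, 0.16 to 0.31 for GTO1, -0.33 to -0.18 for GSH2, -0.11 to 0.094 for GLR1 and -0.0365 to 0.24 for GSH1. GTO3 was at 0.72 in both settings that took it, which used the same 2 values (limma adjusted p 0.268 and, without replicate 1, 0.771).

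The median over the genes was 0.0414 on low power scans alone and -0.0252 on probes with a value in both scans, where 3 of the 7 genes were left, and 0.16 to 0.24 with a replicate left out. Over all probes, limma called 0 higher on high power scans alone, with low power values filling gaps, with arrays centred, with arrays centred and scaled and without variance moderation, 1 with the trend removed, 6 each on at least 2 arrays and with robust eBayes, 8 on low power scans alone and 10 on both scans. It called 10 lower on low power scans alone and 9 on both scans. Leaving out replicates gave 0 to 44 higher and 0 to 26 lower. The cause of these shifts was not tested. Each log ratio already compares treated with untreated cDNA on 1 array, so no further block was fitted. The labels do not say whether the arrays shared an untreated culture, and such sharing was not modelled. The medians of the 8 lists and of their union moved past the spread between arrays in 19 of 117 recomputations. Not all 117 were free to move. Robust eBayes, no variance moderation and the fit on at least 2 arrays left each of these medians unchanged. Leaving out 1 array turned the sign for the glutaredoxin, NADPH, regulator, breakdown and transport, and transferase-like lists and for the union. Some of the 19 came from settings with fewer genes, such as 2 regulator genes on low power scans alone.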
